A study of Mus musculus with 18 samples.

Results

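*Clec4e*, *Clec4d*, *Clec4n*, *Clec5a*, *Clec7a* and *Clec12a* encode C-type lectin pattern receptors, surface proteins with which macrophages bind sugars, glycolipids and products of dead cells. Members were found by gene symbol, which picked 6 of the 56748 genes counted; the symbols themselves were chosen with earlier results of these data known. All 6 passed the filter on low counts that left 13691 genes for testing.

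As background, these receptors signal in different ways. *Clec4e* (Mincle), *Clec4d* (MCL) and *Clec4n* (Dectin-2) carry no long signalling tail and pair with the adaptor *Fcer1g*, *Clec5a* (MDL-1) pairs with the adaptor *Tyrobp* (DAP12), and *Clec7a* (Dectin-1) has a tyrosine motif of its own. All of these recruit the kinase *Syk*, from which the *Card9*, *Bcl10* and *Malt1* proteins lead to NF-κB, whereas *Clec12a* (MICL) carries an inhibitory motif that recruits phosphatases.

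The study asked how the antioxidant tert-butylhydroquinone (TBHQ) alters the response of macrophages to bacterial lipopolysaccharide (LPS) and to PIC, the synthetic double-stranded RNA poly(I:C). RNA was sequenced from a single mouse macrophage line in 18 libraries covering 6 conditions with 3 libraries each, all of them marked WT in the column names of the deposited tables. The replicates were described as biological replicates, and p-values measure the spread between these samples. Each library held between 14423390 and 18851626 gene counts, LPS replicate 1 being the shallowest and PIC replicate 3 the deepest.

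Control cells were given neither TBHQ nor a stimulus. TBHQ cells received 5 µM TBHQ for 4 h. LPS-stimulated cells received 0.1 µg/mL LPS for 12 h, and PIC-stimulated cells received 20 µg/mL PIC for 12 h. LPS + TBHQ and PIC + TBHQ cells had the 4 h TBHQ dose first, followed by LPS or PIC at the doses above over 12 h. RNA of the TBHQ condition dates from 4 h, and that of control and of every stimulated condition from the 12 h arm of the study, so TBHQ and harvest time cannot be told apart in the comparison of TBHQ with control. TBHQ had been dissolved in DMSO and the control was untreated, so TBHQ and its solvent cannot be told apart either. No DMSO is described for the cells given LPS or PIC alone. The same limit therefore holds for LPS + TBHQ against LPS and for PIC + TBHQ against PIC.

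The macrophage label was checked against marker genes. Of 10 macrophage markers, 9 had a mean FPKM (fragments per kilobase of gene, scaled to sequencing depth) of at least 1 in every condition, *Lyz2* being the most abundant at 4531 FPKM in control. *Mertk* was the exception, with 0.0097 FPKM in control. Their summed FPKM lay at 6360 in control and 5836 with TBHQ, at 5907 with LPS against 6600 once TBHQ came first, and at 6133 with PIC against 6515. Single markers in these sums did not all differ in the same direction. *Csf1r* stood at 154 FPKM in control, 91.7 with LPS and 86.1 with PIC, and *Lyz2* at 3688 with LPS and 3464 with PIC. *Cd14* stood at 809.7, 1259.6 and 1658 FPKM and *Adgre1* at 18.4, 50.6 and 67.6, while *Fcgr1* stood at 13.98 in control and 5.77 with TBHQ. *Fcgr1* was also lower with TBHQ under LPS (13.9 to 5.40) and under PIC (9.64 to 4.52). *Adgre1* was lower as well, at 12.8 with TBHQ alone, 40.1 with LPS + TBHQ and 46.6 with PIC + TBHQ. *Csf1r* went the other way, at 173.9, 120.4 and 117.1 in the same conditions. Of 6 osteoclast markers, a fate this line can take, 5 reached 1 FPKM in every condition, led by *Ctsk* at 210.0 FPKM in control, while *Calcr* did not. Their sum was 304 in control and 250.3 with TBHQ, 338 with LPS against 308 once TBHQ came first, and 356 with PIC against 320.3. *Mmp9* went from 9.91 FPKM in control to 58.6 with LPS and 76.4 with PIC, whereas *Ctsk* stood at 189.6 and 188 there.

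Markers of other blood cells were low. The 6 neutrophil markers summed to 0.903 FPKM in control, 0.460 after TBHQ, 3.27 for LPS, 3.53 for LPS + TBHQ, 5.60 for PIC and 3.82 for PIC + TBHQ, led by *S100a8*, with *Ly6g* and *S100a9* at 0 in every library. The 6 dendritic cell markers summed to 0.893, 0.405, 0.915, 1.23, 1.04 and 1.09 FPKM in the same order, led by *Itgax*, with *Ccr7* and *Siglech* at 0. The 5 T cell markers summed to between 2.31 and 4.71 FPKM, led by *Lck*, with *Cd3e* and *Cd8a* at 0. B cell markers summed to at most 0.254 FPKM, NK cell markers to at most 0.0263 and fibroblast markers to at most 0.0746. The part of the markers that move with a stimulus or with TBHQ in the results on the receptors was not tested.

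The receptors lie on chromosome 6, at the coordinates given in the authors' files, which differ from those of the GRCm38 annotation. *Clec4n* (ENSMUSG00000023349, bases 123206802 to 123223980, forward strand), *Clec4d* (ENSMUSG00000030144, bases 123239070 to 123252224, forward strand) and *Clec4e* (ENSMUSG00000030142, bases 123258748 to 123266829, reverse strand) follow each other. *Clec12a* (ENSMUSG00000053063, bases 129319654 to 129342266, forward strand) and *Clec7a* (ENSMUSG00000079293, bases 129438554 to 129449742, reverse strand) form another stretch, and *Clec5a* (ENSMUSG00000029915, bases 40551828 to 40562755, reverse strand) stands apart. No other gene overlapped any of the 6 on either strand. Stretches of 50 bases shared with another gene made up 0.686% of *Clec4n* (all with *Gm44147*), 0.402% of *Clec12a* and none of the other 4.

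In control cells *Clec4d* was the most abundant of the receptors. In bulk RNA, fewer cells of a type and less RNA per cell cannot be told apart, which holds for every receptor here. In control *Clec4d* held 58.3% of the summed FPKM of the 6 genes, followed by *Clec5a* with 19%, *Clec4e* with 13.7%, *Clec12a* with 6.29%, *Clec7a* with 1.52% and *Clec4n* with 1.13%. These shares depend on the gene length in the FPKM, 1599 bases for *Clec4d*, 3840 for *Clec5a* and 4965 for *Clec4e*. Mean raw counts in control were 4127, 3228 and 2996 in that order. With PIC they were 9693 for *Clec4d* and 22532 for *Clec4e*. The sum of the 6 was 273 ± 2.54 FPKM (SD, n = 3) in control, 316 ± 6.41 after TBHQ, 473 ± 9.18 for LPS, 492 ± 6.11 for LPS + TBHQ, 797 ± 24.2 for PIC and 727 ± 9.33 for PIC + TBHQ. The make-up moved with the stimulus: *Clec4e* held 22.3% with LPS and 38.5% with PIC, and *Clec5a* held 9.50% and 5.81%. With LPS + TBHQ the share of *Clec4e* was 17.1% and with PIC + TBHQ it was 32.3%, and the share of *Clec4d* was 67.4% and 56.9%.

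**Figure D1:**
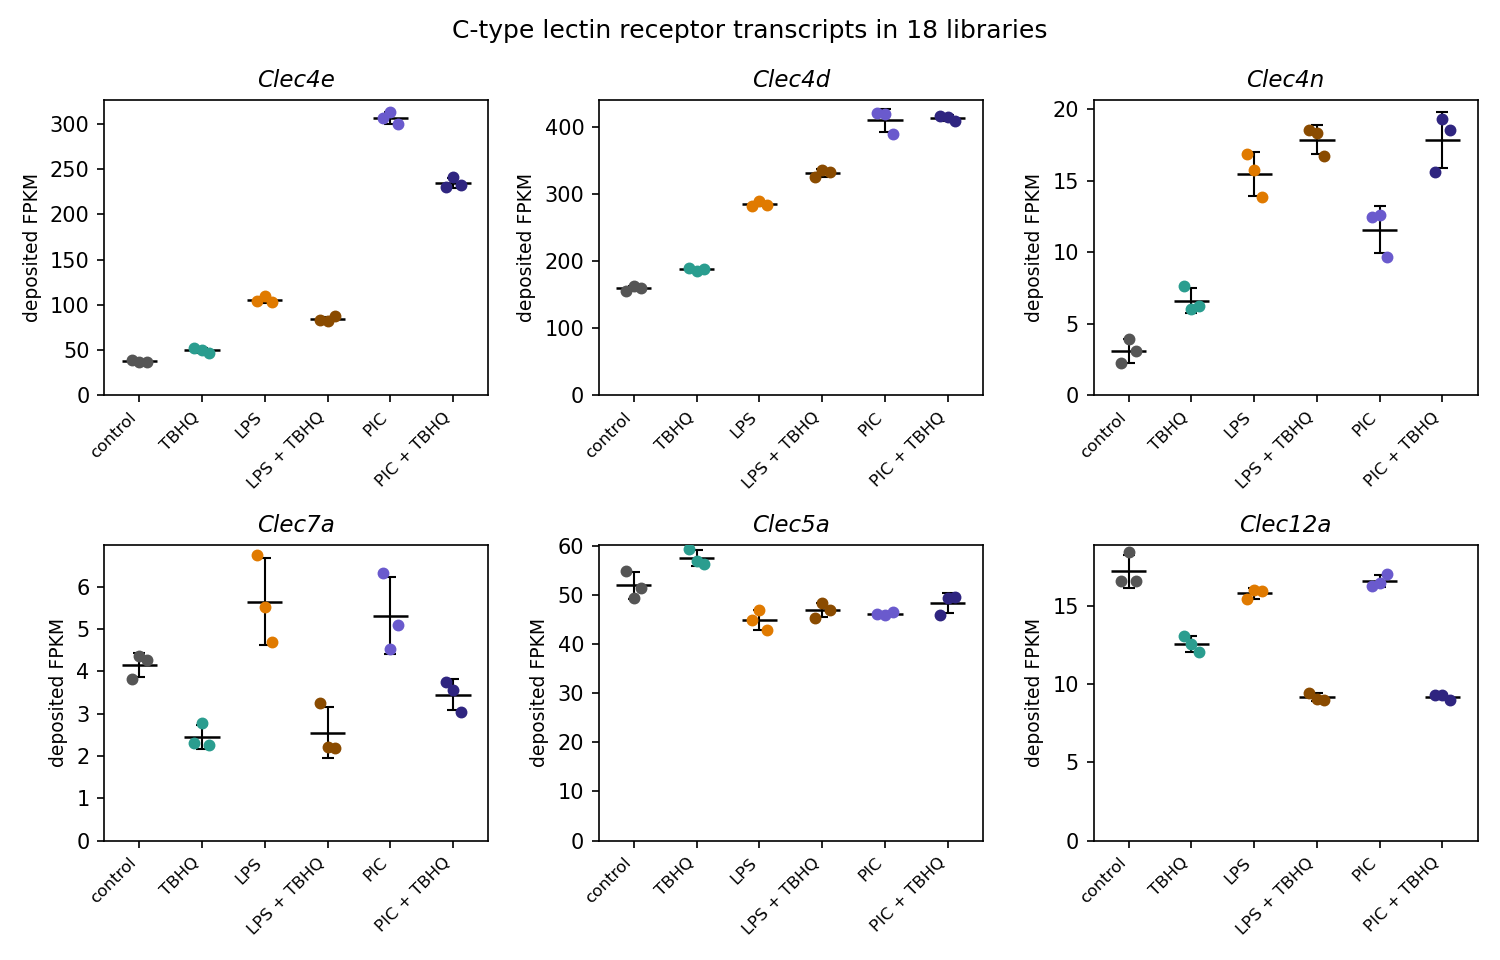
Deposited FPKM (y axis, 1 panel per gene) of the 6 receptors in the 6 conditions (x axis); points are the 3 libraries of a condition, horizontal lines their mean and error bars the SD. The *Clec4e* libraries run from 36.1 to 39.0 in control and from 299.997 to 313 with PIC, and the *Clec12a* libraries fall from between 16.3 and 17.0 with PIC to between 8.998 and 9.32 with PIC + TBHQ.

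Against control, 4 receptors rose and 2 fell with TBHQ alone, where 14.2% of all tested genes rose and 14.8% fell (FDR below 0.05). With LPS, 4 rose and 2 fell, against 24.0% and 24.1% of all genes. With PIC, 4 rose and 1 fell, against 28.6% and 30.1%. With LPS + TBHQ, 3 rose and 3 fell, against 21.2% and 22.5%, and with PIC + TBHQ, 3 rose and 2 fell, against 26.4% and 26.0%. These 5 comparisons share the control libraries. The median log2FC of the 6 receptors was 0.19 for TBHQ, 0.63 for LPS, 0.84 for PIC, 0.45 for LPS + TBHQ and 0.63 for PIC + TBHQ, and that of all genes in the same order was −8.57e-05, −0.0040, −0.015, −0.0075 and −0.0012.

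Fewer receptors passed a stricter bound, FDR below 0.01 and log2FC above 2. *Clec4n* was the only receptor above it with LPS, where 1.34% of all genes were, and with LPS + TBHQ, where 0.840% were. *Clec4e* was the only receptor above it with PIC, where 2.70% were. With a library left out, the log2FC of *Clec4n* with PIC ran from 1.69 to 2.08, so *Clec4n* could pass there too. Both *Clec4e* and *Clec4n* were above it with PIC + TBHQ, where 1.76% of all genes were.

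Between stimulated cells with and without TBHQ, 1 receptor rose and 3 fell under LPS, where 11.7% of all genes rose and 12.2% fell. Under PIC 1 rose and 3 fell as well, where 15.8% of all genes rose and 15.5% fell. The median log2FC of the receptors was −0.13 under LPS and −0.18 under PIC, and that of all genes was 0.0023 and 0.0089. Between the stimuli themselves, 2 receptors were higher and 1 lower with PIC than with LPS, where 14.9% of all genes were higher and 12.8% lower, with a median of 0.05 for the receptors and −0.0087 for all genes.

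**Figure D2:**
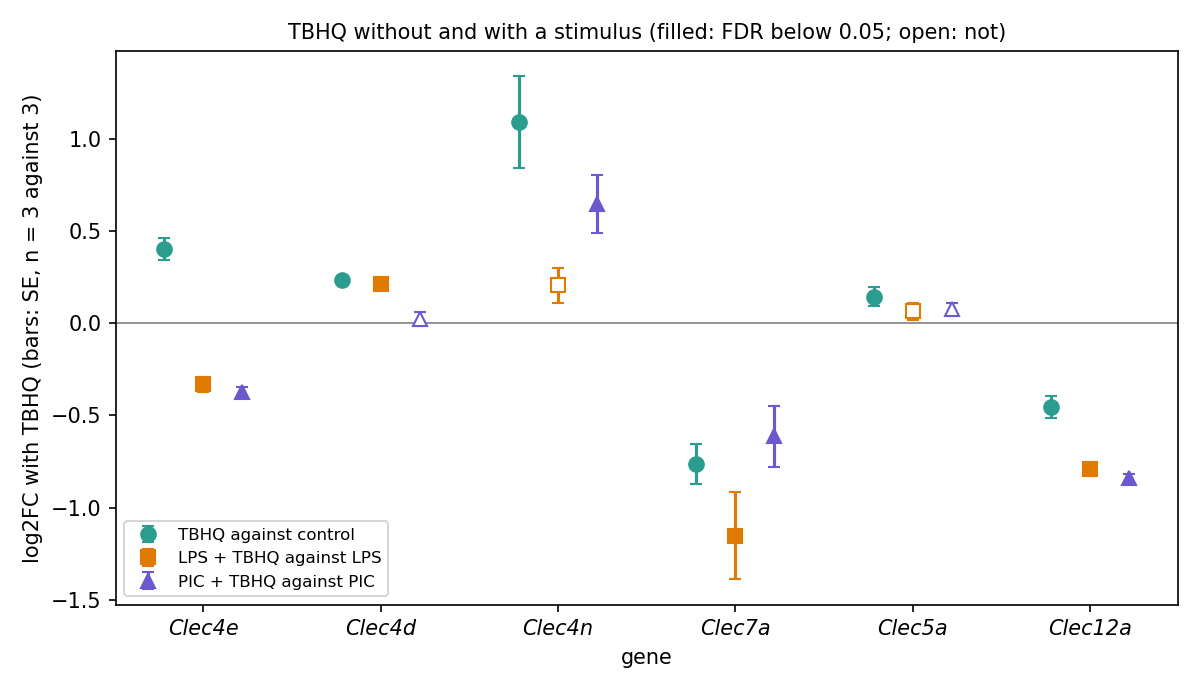
The log2FC (y axis) of each receptor (x axis) for TBHQ against control (circles), LPS + TBHQ against LPS (squares) and PIC + TBHQ against PIC (triangles), with bars for the SE; filled symbols have an FDR below 0.05. *Clec4e* stands at 0.40 without a stimulus and at −0.33 and −0.37 with LPS and PIC, while *Clec7a* and *Clec12a* are below 0 in all 3.

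*Clec4e*, which binds mycobacterial cord factor and products of dying cells, was the receptor with the widest range. Its libraries held 39.0, 36.9 and 36.1 FPKM in control, 104, 109 and 103 with LPS, and 306, 313 and 299.997 with PIC. The ranges of these 3 conditions lay far apart. Against control *Clec4e* rose with LPS (log2FC 1.49, SE 0.0435, FDR 5.32e-27, 2.82-fold) and more so with PIC (3.02, SE 0.0381, FDR 2.91e-36, 8.11-fold). The difference between PIC and LPS was 1.53 (SE 0.0341, FDR 1.16e-26).

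With TBHQ alone the *Clec4e* libraries held 51.6, 50.1 and 46.4 FPKM, all above the control libraries (log2FC 0.40, SE 0.0585, FDR 4.74e-10). In stimulated cells the direction was the opposite. With LPS + TBHQ the libraries held 82.8, 82.0 and 87.3 FPKM, all below those with LPS (−0.33, SE 0.0403, FDR 9.67e-09, 1.26-fold lower). With PIC + TBHQ they held 231, 241 and 233 FPKM, all below those with PIC (−0.37, SE 0.0259, FDR 2.77e-10, 1.296-fold lower). Even so, *Clec4e* in cells given TBHQ and a stimulus stayed above control, by a log2FC of 1.16 for LPS + TBHQ (SE 0.0437, FDR 1.6e-23) and of 2.65 for PIC + TBHQ (SE 0.0374, FDR 1.93e-34). The order of levels was PIC, PIC + TBHQ, LPS, LPS + TBHQ, TBHQ and control, and every neighbour in it differed. For the pairs in that order not named so far, 25.0% of all genes differed between PIC + TBHQ and LPS and 46.7% between LPS + TBHQ and TBHQ.

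*Clec4d*, which forms a complex with *Clec4e* and binds the same cord factor, rose less steeply from a higher level. Its libraries held 156, 163 and 159.7 FPKM in control, 283, 289 and 284 with LPS, and 421, 419 and 390.3 with PIC. The PIC libraries lay above the LPS libraries, and those above control. *Clec4d* rose with LPS (log2FC 0.83, SE 0.0222, FDR 1.82e-21, 1.78-fold) and with PIC (1.35, SE 0.0414, FDR 3.79e-28, 2.54-fold), and PIC exceeded LPS by 0.51 (SE 0.0387, FDR 5.3e-15).

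With TBHQ alone the *Clec4d* libraries held 189, 185 and 188 FPKM, above every control library (0.23, SE 0.0212, FDR 1.42e-06). With LPS + TBHQ they held 325, 335 and 333 FPKM, above every LPS library (0.21, SE 0.0181, FDR 3.78e-06). With PIC + TBHQ they held 416, 415 and 409 FPKM and overlapped the PIC libraries (0.02, SE 0.0376, FDR 0.662; 0.09 with an FDR of 0.0254 when scaled by total library size). The order of levels was PIC + TBHQ, PIC, LPS + TBHQ, LPS, TBHQ and control, in which only PIC + TBHQ and PIC did not differ. Between PIC and LPS + TBHQ 45.4% of all genes differed, and between LPS and TBHQ 53.9% did.

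*Clec4n*, which binds fungal mannans, was the scarcest of the 6 in control. Its libraries held 2.25, 3.93 and 3.08 FPKM in control, from 49, 91 and 74 counts, and each of its comparisons with control had a larger SE than that of any other receptor. With LPS they held 16.8, 15.7 and 13.8 FPKM, and with PIC 12.4, 12.6 and 9.65. All stimulated libraries lay above all control libraries. *Clec4n* rose with LPS by a log2FC of 2.31 (SE 0.241, FDR 3.45e-16, 4.96-fold) and with PIC by 1.87 (SE 0.259, FDR 1.68e-13, 3.65-fold). Unlike *Clec4d* and *Clec4e* it was lower with PIC than with LPS (−0.44, SE 0.149, FDR 0.00399), although that FDR was 0.0591 without PIC replicate 3 and 0.0611 with limma on log2(FPKM + 0.1).

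After TBHQ alone *Clec4n* stood at 7.60, 5.99 and 6.24 FPKM, above every control library (1.09, SE 0.250, FDR 1.18e-06, 2.13-fold). With LPS + TBHQ the libraries held 18.6, 18.3 and 16.7 FPKM and overlapped those with LPS (0.20, SE 0.0947, FDR 0.188). With PIC + TBHQ they held 15.6, 19.3 and 18.6 FPKM, above every PIC library (0.65, SE 0.155, FDR 2.83e-05, 1.56-fold). The levels ran from LPS + TBHQ through PIC + TBHQ, LPS, PIC and TBHQ to control. The first 3 did not differ from each other as neighbours (FDR 0.994 between LPS + TBHQ and PIC + TBHQ, where 20.2% of all genes differed, and 0.186 between PIC + TBHQ and LPS), while the neighbours from LPS downward did. Between PIC and TBHQ 60.7% of all genes differed.

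*Clec5a*, a receptor for dengue virus and other ligands that acts through *Tyrobp*, moved least over all conditions. With a stimulus alone *Clec12a* moved less (log2FC −0.13 with LPS and −0.07 with PIC). Its libraries held 55.0, 49.5 and 51.5 FPKM in control, 59.4, 57.0 and 56.3 with TBHQ, 44.9, 46.9 and 42.9 with LPS, and 46.2, 46.1 and 46.6 with PIC. TBHQ libraries lay above and stimulated libraries below all control libraries. *Clec5a* rose with TBHQ (log2FC 0.14, SE 0.0511, FDR 0.00813), but the FDR was 0.0817 without control replicate 2 and 0.0592 without TBHQ replicate 1. It fell with LPS (−0.22, SE 0.0587, FDR 5.28e-05) and with PIC (−0.19, SE 0.0447, FDR 0.000300; −0.40 when scaled by total library size).

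With TBHQ before the stimulus *Clec5a* held 45.5, 48.5 and 47.1 FPKM (LPS + TBHQ) and 46.0, 49.4 and 49.7 FPKM (PIC + TBHQ), overlapping the libraries with the stimulus alone. The log2FC was 0.06 under LPS (SE 0.0466, FDR 0.319) and 0.07 under PIC (SE 0.0356, FDR 0.199; 0.14 with an FDR of 0.00848 when scaled by total library size). Against control *Clec5a* was lower after LPS + TBHQ (−0.16, SE 0.0519, FDR 0.00275) and after PIC + TBHQ (−0.11, SE 0.0568, FDR 0.0266; −0.26 when scaled by total library size). The second of these had an FDR of 0.207 without control replicate 1, 0.179 without PIC + TBHQ replicate 1 and 0.0517 with limma on FPKM. The 4 stimulated conditions followed TBHQ and control in the order PIC + TBHQ, LPS + TBHQ, PIC and LPS, and no neighbours among them differed (FDR 0.535, 0.608 and 0.623; PIC stood above LPS by 0.03, and at −0.096 when scaled by total library size).

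*Clec7a*, the receptor for fungal beta-glucan, was lower wherever TBHQ had been given. Its libraries held 3.83, 4.37 and 4.26 FPKM in control, from 155, 188 and 190.0 counts, and 2.31, 2.78 and 2.27 with TBHQ. With LPS they held 6.75, 5.52 and 4.69 FPKM, and with LPS + TBHQ 3.24, 2.21 and 2.18. PIC libraries held 6.33, 4.53 and 5.10 FPKM, and PIC + TBHQ libraries 3.75, 3.55 and 3.05. In each of these 3 pairs the TBHQ libraries were all lower, with no overlap. *Clec7a* fell by 0.76 on the log2 scale with TBHQ alone (SE 0.109, FDR 0.000169, 1.70-fold lower), by 1.15 under LPS (SE 0.236, FDR 1.27e-07, 2.22-fold lower) and by 0.61 under PIC (SE 0.166, FDR 0.00103, 1.53-fold lower).

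The stimuli alone moved *Clec7a* little, and replicates spread widely. It was higher than control with LPS (log2FC 0.43, SE 0.160, FDR 0.00923), though not past the threshold without LPS replicate 1 (0.29, FDR 0.119). With PIC it was higher by 0.34 (SE 0.152, FDR 0.0376), which was not past the threshold with DESeq2 (FDR 0.0773), with limma on FPKM (FDR 0.0743 and 0.0864), when scaled by total library size (0.12, FDR 0.470) or without PIC replicate 1 (0.21, FDR 0.237), control replicate 1 (0.28, FDR 0.128) or control replicate 3 (0.35, FDR 0.0606). Against control it was lower with LPS + TBHQ (−0.72, SE 0.192, FDR 0.000164), and stood at −0.28 with PIC + TBHQ (SE 0.105, FDR 0.113; −0.43 with an FDR of 0.0131 when scaled by total library size). The order was LPS, PIC, control, PIC + TBHQ, LPS + TBHQ and TBHQ. PIC differed from control, and PIC + TBHQ from LPS + TBHQ (FDR 0.0408) although their libraries overlapped, while the other neighbours did not differ.

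*Clec12a*, the inhibitory receptor of the set, which binds uric acid crystals, hardly moved with a stimulus and fell with TBHQ. Its libraries held 16.6, 18.4 and 16.6 FPKM in control, 15.4, 16.0 and 15.9 with LPS, and 16.3, 16.4 and 17.0 with PIC. The PIC libraries overlapped the control libraries (log2FC −0.07, SE 0.0532, FDR 0.214; −0.29 with an FDR of 2.26e-06 when scaled by total library size). LPS libraries lay just below control (−0.13, SE 0.0536, FDR 0.0198; −0.22 when scaled by total library size), a call that was lost with DESeq2 (FDR 0.0560), with no filter on low counts (FDR 0.0538), without control replicate 2 (−0.08, FDR 0.202) and without LPS replicate 1 (−0.11, FDR 0.0979).

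With TBHQ the *Clec12a* libraries held 13.1, 12.6 and 12.1 FPKM, LPS + TBHQ libraries 9.44, 9.03 and 8.97, and PIC + TBHQ libraries 9.28, 9.32 and 8.998. Each set lay wholly below its partner without TBHQ. *Clec12a* fell with TBHQ alone (−0.46, SE 0.0612, FDR 1.71e-09, 1.37-fold lower), under LPS (−0.79, SE 0.0303, FDR 3.48e-15, 1.73-fold lower) and under PIC (−0.84, SE 0.0238, FDR 6.93e-16, 1.79-fold lower). Against control it stood at −0.92 for LPS + TBHQ (SE 0.0547, FDR 8.66e-18) and at −0.91 for PIC + TBHQ (SE 0.0519, FDR 8.68e-18). Control, PIC and LPS were the 3 highest levels, and the neighbours among these 3 did not differ (FDR 0.214 and 0.360; PIC stood above LPS by 0.06, and at −0.067 when scaled by total library size), TBHQ followed and differed from both neighbours, and PIC + TBHQ and LPS + TBHQ were lowest and did not differ beyond their spread (FDR 0.915). Between PIC + TBHQ and TBHQ 54.6% of all genes differed.

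Whether the TBHQ effect depended on the stimulus was tested as a difference between effects. Between LPS and PIC, 1 receptor passed the test in the higher and none in the lower direction, against 1.01% and 0.825% of all genes, and 3 receptors had an unadjusted p below 0.05, as did 1940 of the 13691 genes. DESeq2 called 1 receptor as well, and scaling by total library size called 0. The receptor was *Clec4d*, whose TBHQ effect was higher under LPS than under PIC by 0.19 (SE 0.0417, FDR 0.0188). That FDR was 0.0793 when scaled by total library size, 0.0654 without LPS + TBHQ replicate 2 and 0.0512 without PIC + TBHQ replicate 3. The difference was 0.04 for *Clec4e* (SE 0.0479, FDR 0.789; −0.0023 when scaled by total library size), −0.44 for *Clec4n* (SE 0.182, FDR 0.161), −0.54 for *Clec7a* (SE 0.289, FDR 0.196) and 0.05 for *Clec12a* (SE 0.0385, FDR 0.813). Under other settings that of *Clec12a* ran from 0.0075 to 0.069. For *Clec5a* it was −0.01 (SE 0.0586, FDR 0.963), and 0.0028 with DESeq2.

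Set against the TBHQ effect without a stimulus, none of the receptors passed in the higher and 3 in the lower direction under LPS, where 9.14% and 9.33% of all genes did. Under PIC none passed in the higher and 3 in the lower direction, where 13.3% and 12.5% of all genes did. At an unadjusted p below 0.05 there were 3 receptors under LPS and 4 under PIC, beside 4041 and 4941 of the 13691 genes. DESeq2 called 0 higher and 3 lower under either stimulus. *Clec4e* differed most clearly, by −0.73 under LPS (SE 0.0710, FDR 1.09e-12) and by −0.78 under PIC (SE 0.0639, FDR 1.27e-13). *Clec12a* differed by −0.33 (SE 0.0683, FDR 0.000443) and −0.39 (SE 0.0657, FDR 4.96e-05). *Clec4n* differed by −0.88 under LPS (SE 0.267, FDR 0.000836), and under PIC by −0.44 (SE 0.294, FDR 0.0940), which passed the threshold without control replicate 2 (−0.65, FDR 0.0214) or PIC replicate 3 (−0.58, FDR 0.0236) and shrank without control replicate 1 (−0.27, FDR 0.361). *Clec4d* differed by −0.21 under PIC (SE 0.0432, FDR 0.000800; −0.14 when scaled by total library size), and stood at −0.02 under LPS (SE 0.0279, FDR 0.842; 0.0097 when scaled by total library size). The values that did not pass for the other receptors were −0.08 and −0.07 for *Clec5a* (FDR 0.402 and 0.435, the second 0.0019 when scaled by total library size) and −0.39 and 0.15 for *Clec7a* (FDR 0.227 and 0.658). With a library left out, those of *Clec5a* ran from −0.12 to −0.046 and from −0.11 to −0.036. Those of *Clec7a* ran from −0.60 to −0.25 (lowest FDR 0.0520) and from 0.034 to 0.27 (lowest FDR 0.408). These differences also hold the gap in harvest time, from which the stimulus cannot be told apart, and the pair shares the TBHQ and control libraries.

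The scaling of the libraries moved all genes together. When TMM was replaced by total library size, the median log2FC of all genes shifted by −0.22 for PIC against control, by −0.15 for PIC + TBHQ against control and by −0.13 for PIC against LPS. Calls for all genes then split into 2454 higher and 4558 lower with LPS (3283 and 3306 with TMM), 2379 and 6635 with PIC (3917 and 4120), 2281 and 4034 with LPS + TBHQ (2896 and 3087), and 2364 and 5515 with PIC + TBHQ (3615 and 3563). For LPS + TBHQ against LPS the split was 2061 and 1401 (1601 and 1673), for PIC + TBHQ against PIC 3398 and 1436 (2167 and 2118), and for PIC against LPS 985 and 4373 (2035 and 1752). For the difference of TBHQ effects between LPS and PIC it was 74 and 235 (138 and 113; 241 and 102 with DESeq2), and for that between PIC and no stimulus 2696 and 1153 (1816 and 1716). Among the receptors the split became 3 higher and 2 lower for PIC against control, 3 and 3 for PIC + TBHQ against control, and 3 and 3 for PIC + TBHQ against PIC. With DESeq2 it became 4 and 1 for LPS and 3 and 1 for PIC against control. All genes then split into 3044 higher and 2880 lower with LPS and into 3826 and 3562 with PIC. The directions given above for *Clec4e*, *Clec4d* and *Clec4n* against control held under each scaling.

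The adaptors and kinases next to the receptors were read from a list of 19 genes, all tested. With LPS 10 rose and 6 fell, with PIC 10 rose and 6 fell, and with TBHQ alone 5 rose and 6 fell, beside 24.0% and 24.1% of all genes with LPS, 28.6% and 30.1% with PIC and 14.2% and 14.8% with TBHQ. The median log2FC of the list was 0.19, 0.15 and −0.03, beside −0.0040, −0.015 and −8.57e-05 for all genes. *Fcer1g*, the adaptor of *Clec4e*, *Clec4d* and *Clec4n*, stood at 148 FPKM in control, 189 with LPS and 229.6 with PIC, and rose with both (log2FC 0.35, SE 0.0375, FDR 5.07e-08 and 0.62, SE 0.0331, FDR 2e-14). *Tyrobp*, the adaptor of *Clec5a*, was the more abundant at 438 FPKM in control and fell with LPS to 332 (−0.41, SE 0.0476, FDR 6.03e-10) and with PIC to 346 (−0.36, SE 0.0558, FDR 6.57e-09). Both partners of *Clec5a* signalling, receptor and adaptor, were lower with a stimulus. With TBHQ alone they went opposite ways. *Tyrobp* fell (−0.25, SE 0.0405, FDR 1.61e-05), whereas *Clec5a* stood at 0.14 (FDR 0.00813).

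*Syk*, the kinase shared by the activating receptors, rose from 15.1 FPKM in control to 30.0 with LPS (0.99, SE 0.0291, FDR 2.63e-22) and 43.3 with PIC (1.504, SE 0.0199, FDR 2.52e-28). It rose with TBHQ alone (0.15, SE 0.0359, FDR 0.00239) but fell with TBHQ under LPS by 0.12 on the log2 scale (SE 0.0271, FDR 0.0157) and under PIC by 0.25 (SE 0.0283, FDR 6.91e-07). *Src*-family kinases phosphorylate the receptors' motifs. *Src* rose with PIC by 2.29 (SE 0.0634, FDR 4.04e-31) and was lower with TBHQ under PIC (−0.47, SE 0.036, FDR 1.81e-11). *Plcg2*, the phospholipase downstream of *Syk*, was higher with TBHQ under LPS (0.29, SE 0.0196, FDR 1.6e-07) and under PIC (0.26, SE 0.0215, FDR 1.22e-06). In the whole list 3 genes rose and 5 fell with TBHQ under LPS (median −0.08), and 6 rose and 7 fell under PIC (median 0.06). Here, and for the lists that follow, 11.7% of all genes rose and 12.2% fell with TBHQ under LPS, and 15.8% rose and 15.5% fell under PIC.

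The CARD9 complex and the proteins after it made up a list of 25 genes, all tested. With LPS 12 rose and 6 fell (median log2FC 0.14), with PIC 12 rose and 6 fell (0.07), and with TBHQ alone 10 rose and 1 fell (0.10). Of all genes, 24.0% rose and 24.1% fell with LPS, 28.6% and 30.1% with PIC, and 14.2% and 14.8% with TBHQ. *Card9* itself stood at 31.8 FPKM in control and 31.3 with PIC (−0.04, SE 0.0591, FDR 0.512), and was higher with LPS (0.17, SE 0.0397, FDR 0.00349). Its partner *Malt1*, a protease and scaffold, rose from 2.71 FPKM in control to 4.40 with LPS (0.69, SE 0.0141, FDR 2.51e-12) and 16.4 with PIC (2.57, SE 0.0628, FDR 3.8e-30). *Bcl10*, which links them, rose by 0.38 (SE 0.0179, FDR 8.04e-08) and 0.66 (SE 0.0251, FDR 3.97e-14).

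With TBHQ before the stimulus, 3 genes of the CARD9 list rose and 8 fell under LPS (median −0.05), and 3 rose and 11 fell under PIC (median −0.07), beside medians of 0.0023 and 0.0089 for all genes. *Malt1* fell by 0.37 on the log2 scale under LPS (SE 0.0618, FDR 4.67e-06) and by 1.00 under PIC (SE 0.0627, FDR 5.16e-18), a difference of 0.64 that passed its own test (FDR 6.64e-07). *Card9* went the other way and rose under LPS (0.20, SE 0.0327, FDR 0.00109) and under PIC (0.40, SE 0.0574, FDR 2.37e-08). Among NF-κB subunits, *Nfkb2* fell under PIC by 0.55 (SE 0.0246, FDR 5.64e-13) and *Rel* by 0.61 (SE 0.041, FDR 1.16e-12). Of the other subunits, *Nfkb1* fell under PIC by 0.47 (SE 0.0142, FDR 4.03e-12), whereas *Rela* stood at −0.02 (SE 0.0556, FDR 0.838) and *Relb* at −0.13 (SE 0.0554, FDR 0.197). With TBHQ alone, by contrast, *Nfkb1* (0.26, SE 0.0559, FDR 3.67e-06), *Rel* (0.15, SE 0.0512, FDR 0.0193) and *Rela* (0.19, SE 0.096, FDR 0.0148) rose, while *Nfkb2* (0.11, SE 0.0475, FDR 0.0795) and *Relb* (−0.01, SE 0.104, FDR 0.968) did not pass. In the list 4 genes, *Malt1*, *Nfkb1*, *Nfkb2* and *Rel*, passed the test of the difference between LPS and PIC in the higher direction, where 1.01% of all genes did and 0.825% passed in the lower, a split that turned with the scaling.

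Inhibitory phosphatases and ubiquitin ligases, with *Dok1*, *Dok2*, *Dok3*, *Cyld* and *Usp15* beside them, formed a list of 12 genes, all tested. With LPS 6 rose and 1 fell (median log2FC 0.09), with PIC 6 rose and 4 fell (0.11), and with TBHQ alone 4 rose and 2 fell (0.02). The shares of all genes that rose and fell were 24.0% and 24.1%, 28.6% and 30.1%, and 14.2% and 14.8%. *Ptpn6* (SHP-1), a phosphatase recruited by receptors such as *Clec12a*, fell with LPS (−0.19, SE 0.0313, FDR 1.46e-05) and with PIC (−0.37, SE 0.0209, FDR 1.11e-11). It was higher with TBHQ under LPS (0.11, SE 0.032, FDR 0.0186) and under PIC (0.11, SE 0.0282, FDR 0.0131), the reverse of *Clec12a*. *Tnfaip3* (A20), which removes ubiquitin chains in the NF-κB pathway, rose from 5.08 FPKM in control to 19.3 with LPS and 48.7 with PIC (3.24, SE 0.026, FDR 1e-35), and fell with TBHQ under PIC (−0.83, SE 0.0213, FDR 8.28e-19). With TBHQ 2 genes of the list rose and 4 fell under LPS, and 4 rose and 5 fell under PIC.

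Partners and ligands of the receptors made up a list of 7 genes, all tested. With LPS 4 rose and 2 fell (median log2FC 0.12), with PIC 5 rose and 1 fell (0.32), and with TBHQ alone 3 rose and 4 fell (−0.12), against 24.0% and 24.1%, 28.6% and 30.1%, and 14.2% and 14.8% of all genes. *Sap130*, a nuclear protein that *Clec4e* binds when cells die, rose with TBHQ alone (0.16, SE 0.0516, FDR 0.00635) and stood at 0.08 with LPS (SE 0.0422, FDR 0.166) and 0.10 with PIC (SE 0.0421, FDR 0.0709). *Tlr2*, which acts together with *Clec7a* on fungal walls, rose with TBHQ alone (0.34, SE 0.037, FDR 1.65e-06) and with PIC (0.53, SE 0.0524, FDR 2.08e-11), and fell with LPS (−0.16, SE 0.0923, FDR 0.00989), although those libraries overlapped control. It fell with TBHQ under LPS (−0.30, SE 0.0902, FDR 3.47e-05) and under PIC (−0.34, SE 0.0485, FDR 1.18e-06). With TBHQ 3 of the 7 fell under LPS and 3 under PIC, and the other 4 did not pass the test.

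Of 30 other genes listed as C-type lectins of myeloid cells, 10 had enough counts to be tested. The list also holds genes outside that group, *Clec11a* and *Clec16a* of the tested ones among them. With LPS 2 rose and 2 fell (median log2FC −0.04), with PIC 4 rose and 3 fell (0.07), and with TBHQ alone 1 rose and 3 fell (−0.35, with *Ly75*, at or under 3 counts in every library of both conditions, left out, and −0.47 with it). The rises include *Ly75* with LPS (2.07, FDR 0.0273) and with PIC (3.51, FDR 1.56e-05). It had at most 19 counts in any library and 0.0121 FPKM in control, so these calls are not read as a result on the list. Among all genes the shares that rose and fell in these comparisons were 24.0% and 24.1%, 28.6% and 30.1%, and 14.2% and 14.8%. *Clec4a2*, a neighbour of the Clec4 genes that carries an inhibitory motif, rose from 12.7 to 19.2 FPKM with TBHQ (0.59, SE 0.0578, FDR 2.47e-09) and fell to 8.21 with PIC (−0.65, SE 0.0548, FDR 4.95e-10). *Clec4a3* fell from 16.3 FPKM to 9.67 with TBHQ (−0.76, SE 0.101, FDR 1.89e-07), 8.51 with LPS (−0.95, SE 0.107, FDR 8.95e-10) and 5.28 with PIC (−1.64, SE 0.0802, FDR 2.23e-15). *Clec2d*, a ligand of an NK cell receptor that had 7 to 90 counts per library, was lower with TBHQ alone (−2.34, SE 0.123, FDR 4.61e-06), under LPS (−1.86, SE 0.546, FDR 4.18e-06) and under PIC (−1.44, SE 0.201, FDR 4.55e-05). With TBHQ 1 of the 10 rose and 2 fell under LPS, and 3 rose and 1 fell under PIC. The rises under PIC include *Clec11a* (1.52, SE 0.526, FDR 0.0483), which had 1 to 13 counts per library.

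Within 250 kb of the start of a receptor lay 57 other genes, of which 9 were tested, *Clec4a2* and *Clec2d* among them. With LPS 4 rose and 2 fell (median log2FC 0.27), with PIC 4 rose and 3 fell (0.39), and with TBHQ alone 2 rose and 3 fell (0.05), where 24.0% and 24.1%, 28.6% and 30.1%, and 14.2% and 14.8% of all genes did. With TBHQ 1 rose and 4 fell under LPS, and 1 rose and 2 fell under PIC. *Gabarapl1*, an autophagy gene near *Clec7a*, rose with TBHQ (0.33, SE 0.0544, FDR 1.01e-05), with LPS (0.32, SE 0.0247, FDR 6.47e-06) and with PIC (0.39, SE 0.0331, FDR 7.63e-08). With TBHQ alone this direction was opposite to that of *Clec7a*, whereas with TBHQ under LPS and under PIC *Gabarapl1* stood at −0.03 (SE 0.0345, FDR 0.786) and −0.06 (SE 0.0476, FDR 0.450).

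Genes whose log2 CPM (counts scaled to library size) followed a receptor most closely were sought among 10451 genes over the 18 libraries, which share the 6 conditions. For *Clec4d* they were *Degs1* (r = 0.990), *Hcls1* (0.986) and *Flna* (0.986), with *Pclaf* most opposite (−0.986). For *Clec4e* they were *Marcksl1* (r = 0.994), *Pmp22* (0.986) and *Septin11* (0.984), with *Tk1* most opposite (−0.984). For *Clec4n* they were *Dip2a* (r = 0.964), *Tbcel* (0.958) and *Mfap3l* (0.955), with *Gm9800* most opposite (−0.958). For *Clec5a* they were *Atp2b4* (r = 0.956), *Tacc1* (0.934) and *Atp13a3* (0.933), with *Crybg2* most opposite (−0.934). For *Clec7a* they were *Pcgf5* (r = 0.929), *Eif2ak2* (0.926) and *Egln1* (0.910), with *Tkt* most opposite (−0.908). For *Clec12a* they included *Eif3e* (r = 0.957) and *Ifi27l2a* (0.928), with *Card19* most opposite (−0.972). Among the receptors, r over the same 18 libraries was 0.936 between *Clec4d* and *Clec4e*, 0.856 between *Clec4d* and *Clec4n*, 0.678 between *Clec4e* and *Clec4n* and 0.679 between *Clec7a* and *Clec12a*, and −0.695 between *Clec4d* and *Clec5a*.

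Promoter sequences from RefSeq (GRCm38.p6, 250 bases before to 50 after the transcript start) matched 5 of the 6 receptors in 6 windows, *Clec7a* having a pair, and *Clec4n* is named only. Both strands were searched for 7 motifs, and the share of 32851 promoter windows holding each was 4.36% for NF-κB GGGNNTTTC, 5.82% for NF-κB GGGNNTTCC, 10.8% for C/EBP TTGCNNAA, 8.56% for ISRE GAAANNGAA, 7.81% for AP-1 TGANTCA, 12.4% for the antioxidant response element TGACNNNGC and 13.6% for PU.1 GAGGAAG. The windows of *Clec4d* (chr6:123261857-123262156, forward strand) and *Clec4e* (chr6:123289822-123290121, reverse strand) are printed because these neighbours both rose with either stimulus and with TBHQ alone, while with TBHQ under LPS *Clec4d* rose and *Clec4e* fell. Capitals mark the motif letters found. In *Clec4d* they are PU.1 at bases 10 to 16 and ISRE at bases 252 to 260, both on the opposite strand, and in *Clec4e* they are C/EBP at bases 185 to 192, also on the opposite strand.
Clec4d: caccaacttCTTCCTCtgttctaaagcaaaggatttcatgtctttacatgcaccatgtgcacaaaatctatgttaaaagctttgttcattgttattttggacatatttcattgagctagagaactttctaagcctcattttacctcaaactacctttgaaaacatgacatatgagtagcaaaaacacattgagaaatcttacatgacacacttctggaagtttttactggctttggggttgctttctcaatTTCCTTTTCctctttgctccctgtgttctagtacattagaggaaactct
Clec4e: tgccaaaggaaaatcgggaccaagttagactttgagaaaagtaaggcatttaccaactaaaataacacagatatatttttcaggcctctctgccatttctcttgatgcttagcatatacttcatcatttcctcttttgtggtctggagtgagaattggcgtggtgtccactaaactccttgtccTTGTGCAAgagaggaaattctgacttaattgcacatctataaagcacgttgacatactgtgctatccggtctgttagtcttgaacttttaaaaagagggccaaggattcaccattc

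Neither window held the letters of an NF-κB, AP-1 or antioxidant response element motif, which says only that these letters are not in these 300 bases. The *Clec12a* window held C/EBP, AP-1 and PU.1 letters, the *Clec5a* window held PU.1 letters at bases 169 to 175 and 195 to 201, and the *Clec7a* windows held none of the 7. The *Clec12a* window (chr6:129349994-129350293, forward strand) lies inside the gene, which starts at base 129342691 in the GRCm38 annotation. It therefore does not cover that start. A match describes the sequence and shows no binding.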

How the data were processed

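The authors deposited, for each gene and library, raw read counts from featureCounts 1.5.0-p3 and FPKM values, beside the gene length behind each FPKM. The submitters' processing notes name HISAT2 2.0.5 and StringTie 1.3.3b as further tools. The deposited FPKM equalled the FPKM computed from counts, gene length and library total, times a constant per library of 0.943 to 1.12, highest in PIC libraries. The labels name both GRCm38 and mm39, and 50588 of 52073 gene IDs shared with a GRCm38 annotation had another start, so coordinates are given as in the files. The labels mention directional and non-directional libraries, and the strand setting of the counting was not given in the sources used here.

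Counts of 13691 genes passing filterByExpr were fitted with edgeR 4.0.16 (R 4.3.3), with TMM scaling, 1 coefficient per condition over all 18 libraries and the quasi-likelihood test with Benjamini-Hochberg adjustment over all genes tested; FDR is that adjusted p, and a call is an FDR below 0.05. The SE comes from the spread of log2 CPM (prior count 2) between replicates. Levels are deposited FPKM. A total of 3 counts in a library, 0.159 to 0.208 CPM (counts scaled to library size), was taken as the floor, which covers counting error only. Replicate pairs differed by more than counting noise, so none was counted as a repeat.

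Alternatives were DESeq2 1.42.0, RLE and total library size scaling, no filter, a mean of at least 50 counts, only the conditions compared, a replicate block, limma 3.58.1 on log2(FPKM + 1) and log2(FPKM + 0.1), the threshold FDR below 0.01 with an absolute log2FC above 2, and each library left out in turn. Named genes are the 6 receptors, genes of the lists picked for their role, and for each receptor the 3 genes with the highest and the 1 with the lowest Pearson r among genes with a mean of at least 50 counts; 1 such gene is not reported here. The receptors and lists were chosen with earlier results of these data known, and the comparisons of TBHQ effects with and without a stimulus were added after values were seen. Python 3.11.15, pandas 2.3.3, numpy 2.4.6 and matplotlib 3.10.9 were used for tables and plots.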

Additional observations from a re-analysis of the deposited data

Results flagged for a closer look

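The test of the difference between TBHQ effects, computed with edgeR's quasi-likelihood test, singled out 7 values. For *Clec4d* the TBHQ effect under LPS exceeded that under PIC by 0.19 on the log2 scale, from 0.21 under LPS and 0.02 under PIC; its FDR was 0.0793 when scaled by total library size, 0.0654 without LPS + TBHQ replicate 2 and 0.0512 without PIC + TBHQ replicate 3. Against the TBHQ effect without a stimulus, that under LPS differed by −0.73 for *Clec4e*, from 0.40 to −0.33, a change of direction. It differed by −0.88 for *Clec4n*, from 1.09 to 0.20, and by −0.33 for *Clec12a*, from −0.46 to −0.79. Under PIC the TBHQ effect differed from that without a stimulus by −0.21 for *Clec4d*, by −0.78 for *Clec4e* and by −0.39 for *Clec12a*. The 6 values set against no stimulus also hold the difference in harvest time, which cannot be told apart from the stimulus.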

How the results depend on the processing

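Over the single-gene results, other settings gave the same direction and side of the threshold 568 times, reversed the direction 12 times, gained a call 4 times and lost one 10 times; leaving out a library did so 479, 10, 2 and 13 times. With FDR below 0.01 and an absolute log2FC above 2, the count of receptors called against control was 0 for TBHQ. It was 1 each for LPS, PIC and LPS + TBHQ, and 2 for PIC + TBHQ. Of all genes, 1.34% passed in the higher direction for LPS and 2.70% for PIC, beside 0.840% and 1.76% once TBHQ came first. With a library left out, the log2FC of *Clec4n* for PIC ran from 1.69 to 2.08, so the count there could also be 2. The count was 0 for LPS + TBHQ against LPS and for PIC + TBHQ against PIC. It was also 0 for PIC against LPS and for each difference of TBHQ effects. No share of all genes is given beside the counts of 0, so these are not read as a result on the receptors. The count of 1 for the difference of TBHQ effects between LPS and PIC was 0 with total library size, and 0 to 1 with a library left out. Reversals concerned values that had not passed the test. *Clec5a* in that difference was 0.0028 with DESeq2, 0.0042 with RLE, 0.0064 with no filter, 0.0019 with a mean of at least 50 counts, 0.0031 and 0.0032 with limma, 0.0025 with only the conditions compared, and −0.043 to 0.039 with a library left out. With total library size *Clec4e* in it was −0.0023, *Clec5a* and *Clec12a* for PIC against LPS were −0.096 and −0.067, *Clec4d* for LPS minus no stimulus was 0.0097 and *Clec5a* for PIC minus no stimulus was 0.0019. With a library left out, *Clec4d* for PIC + TBHQ against PIC ran from −0.029 to 0.026 and *Clec7a* for PIC against LPS from −0.23 to 0.047. The cause was not tested for any of these, nor for the calls lost beside the results. The replicate block changed no call of a receptor; the count was 6 with it for LPS against control. Deviations of libraries with the same number correlated at −0.0719 to 0.142 over 45 pairs (median 0.026). Those of other pairs correlated at −0.166 to 0.125 over 90 pairs (median −0.011). These ranges overlap, so they cannot settle whether libraries with the same number belong together, which was not tested. Depth limits *Clec4n* in control most, with 49 to 91 counts per library, and *Clec7a* where TBHQ was given, with 97 to 152.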
